A study of Mus musculus with 4 samples.

Results

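Type I interferons are cytokines that make a cell hostile to viruses, and the genes described here are the effectors they switch on: sensors of foreign RNA and DNA, proteins that trap or degrade viral RNA, and factors that block viral entry, replication and release. The set holds 47 genes listed by symbol, each found on the array through the gene name of a probe, current or former. They were 47 of 37008 genes and transcripts on the array and had 90 probes. All 47 had a signal well above background on some array, and 44 had one on each of the 4. Ifi205 and Slfn1 were above background on 2 arrays and Slfn4 on 3.

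The study measured messenger RNA in RAW264.7, a mouse macrophage cell line, on 1-colour microarrays. The 4 groups were Mfp2-/- cells with lipopolysaccharide (LPS), wild-type cells with LPS, untreated Mfp2-/- cells and untreated wild-type cells, with 1 array each. Mfp2 is the peroxisomal beta-oxidation enzyme encoded by Hsd17b4, and the Mfp2-/- cells are called knockout below. The sources used here do not give the dose or duration of LPS, how the knockout was made, or whether it is 1 clone. All 4 cultures were RAW264.7 cells with no other label.

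LPS, a component of the outer membrane of Gram-negative bacteria, is sensed by Toll-like receptor 4. A branch of that receptor's signalling leads to transcription of interferon beta, which the macrophage secretes and senses through its own receptor. The receptor then activates a complex of transcription factors, STAT2 and IRF9 among them, that binds the interferon-stimulated response element (ISRE) in the promoters of effector genes. In macrophages these genes are a well known branch of the response to LPS.

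The ISRE is built on repeated GAAA letters, so the promoter windows of the genes were searched for GAAANNGAAA on both strands, counting overlapping matches separately. RefSeq promoter windows (GRCm38.p6, 250 bases before to 50 after the start) were matched by symbol for 37 of the 47 genes. Zbp1, Usp18, Mx1, Tor3a, Ifi204, Rtp4, Parp9, Mx2, Dhx58 and Parp14 had no entry. The letters stood in the windows of 16 of the 37 genes (43.2%), against 3.99% of 27025 genes with a window. Shown here are the 250 bases before the start of 4 genes, those with the largest LPS responses, in knockout and in wild type alike, among the genes that hold the letters and were above background on all 4 arrays. Capitals mark the ISRE letters or their reverse complement. The windows are chr19:34583279-34583528 (plus strand) for Ifit3, chr12:26456453-26456702 (minus) for Rsad2, chr19:34640639-34640888 (plus) for Ifit1 and chr4:156200819-156201068 (minus) for Isg15.
Ifit3: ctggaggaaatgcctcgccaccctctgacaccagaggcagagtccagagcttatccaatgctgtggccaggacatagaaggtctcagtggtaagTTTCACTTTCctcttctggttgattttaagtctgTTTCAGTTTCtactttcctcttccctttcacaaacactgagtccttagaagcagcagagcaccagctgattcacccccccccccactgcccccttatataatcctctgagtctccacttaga
Rsad2: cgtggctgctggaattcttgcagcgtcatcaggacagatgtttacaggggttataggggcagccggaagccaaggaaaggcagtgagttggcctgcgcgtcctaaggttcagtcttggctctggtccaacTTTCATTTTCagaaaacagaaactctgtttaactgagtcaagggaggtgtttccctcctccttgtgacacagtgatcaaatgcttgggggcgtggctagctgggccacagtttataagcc
Ifit1: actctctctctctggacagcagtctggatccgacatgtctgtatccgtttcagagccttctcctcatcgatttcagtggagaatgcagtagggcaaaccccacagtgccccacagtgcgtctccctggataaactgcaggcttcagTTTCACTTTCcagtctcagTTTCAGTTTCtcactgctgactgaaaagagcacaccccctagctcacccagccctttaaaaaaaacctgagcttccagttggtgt
Isg15: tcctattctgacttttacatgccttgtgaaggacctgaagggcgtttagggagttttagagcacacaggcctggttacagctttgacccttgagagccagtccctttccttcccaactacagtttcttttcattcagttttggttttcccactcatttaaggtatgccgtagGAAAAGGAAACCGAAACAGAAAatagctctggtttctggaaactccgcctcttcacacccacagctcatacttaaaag

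The Isg15 window held 3 overlapping matches in 1 run, the Ifit1 and Ifit3 windows 2 separate matches each, and the Rsad2 window 1. Over all windows of the genes there were 26 matches, of which 16 lay before the start and 14 within 150 bases before it. The letters TTCNNNGAA, the core of the gamma-activated site, stood in the windows of 8 of the 37 genes (21.6%), against 9.55% of all genes. Among the 37 genes with a window, no pair of different genes shared overlapping windows (0 pairs). Genes without a window, Parp9 and Parp14 among them, could not be compared. A match is a description of letters and no measurement of binding.

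The effector genes were higher with LPS in both genotypes, and the size of the response varied widely among them. A difference of 2-fold or more (1 on the log2 scale) between arrays on which the gene was above background was called higher or lower. For a gene above background on a single array of the pair, the bound had to reach 2-fold. In knockout cells 37 of 47 genes were called higher and 0 lower with LPS, where 11% of 18388 measured genes were called higher and 12.5% lower. In wild-type cells 44 were called higher and 0 lower, where 9.71% of 18200 genes were called higher and 8.58% lower. The median log2 response of the 47 was 2.15 in knockout, against -0.01 over all genes there, and 2.95 in wild type, against 0.01 over all genes. With the genes not above background at their bounds, the medians were 2.09 and 2.93. With 1 array per group no difference has a replicate check, no p-value is given, and in these bulk samples fewer responding cells cannot be told apart from less RNA per cell.

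The error that can be measured is within an array, from probes printed in 5 or more spots. It gave a difference between 2 arrays a technical SD of 0.14 (log2) for the knockout response, 0.08 for the wild-type response, 0.12 between the genotypes with LPS and 0.10 between the untreated genotypes. It was 0.16 for the difference of the 2 responses. These SDs do not cover the variation between cultures, labelling reactions or positions on the slide. All 4 arrays lay on 1 slide, each at its own position, so position and group cannot be told apart. Between 47.4% and 49.7% of spots on an array were well above background and 0 were saturated. Centring on spike-in probes moved the median of all genes to -0.23 for the knockout response and -0.20 for the wild-type response. It then called 8.13% of all genes higher and 17.2% lower with LPS in knockout, while 34 and 44 of the 47 were called higher in knockout and wild type.

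Hsd17b4 itself had a signal of 1217 in knockout with LPS and 2915 in wild type with LPS, and 2545 in untreated knockout and 4482 in untreated wild type. The knockout value was 44.4% of wild type with LPS and 55.0% untreated, after scaling. No source used here says where the probe lies relative to the change in the gene, so this transcript level does not check the genotype label. Of 11 macrophage and monocyte markers, 10 were above background on all 4 arrays, with summed signals of 397100, 452300, 455700 and 436100 in knockout with LPS, wild type with LPS, untreated knockout and untreated wild type. Of 4 markers each, 2 T cell, 2 B cell, 1 neutrophil, 2 dendritic cell, 1 fibroblast and 1 epithelial marker were above background on any array. Their summed signals, in the same order of groups, were 23340, 20890, 10240 and 20790 for the dendritic cell list and at most 212.4 for each of the others. The dendritic cell sums were nearly all from 1 gene, Siglech (23300, 20850, 10220 and 20760). Flt3, above background on 1 array, had a signal of at most 26.8. The part of these markers in the results was not tested. Markers not above background on any array included Cd3g, Cd2, Cd79a, S100a9, Ly6g, Mpo, Zbtb46, Xcr1, Col1a1, Col1a2, Pdgfra, Epcam, Krt8 and Krt18.

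**Figure D1:**
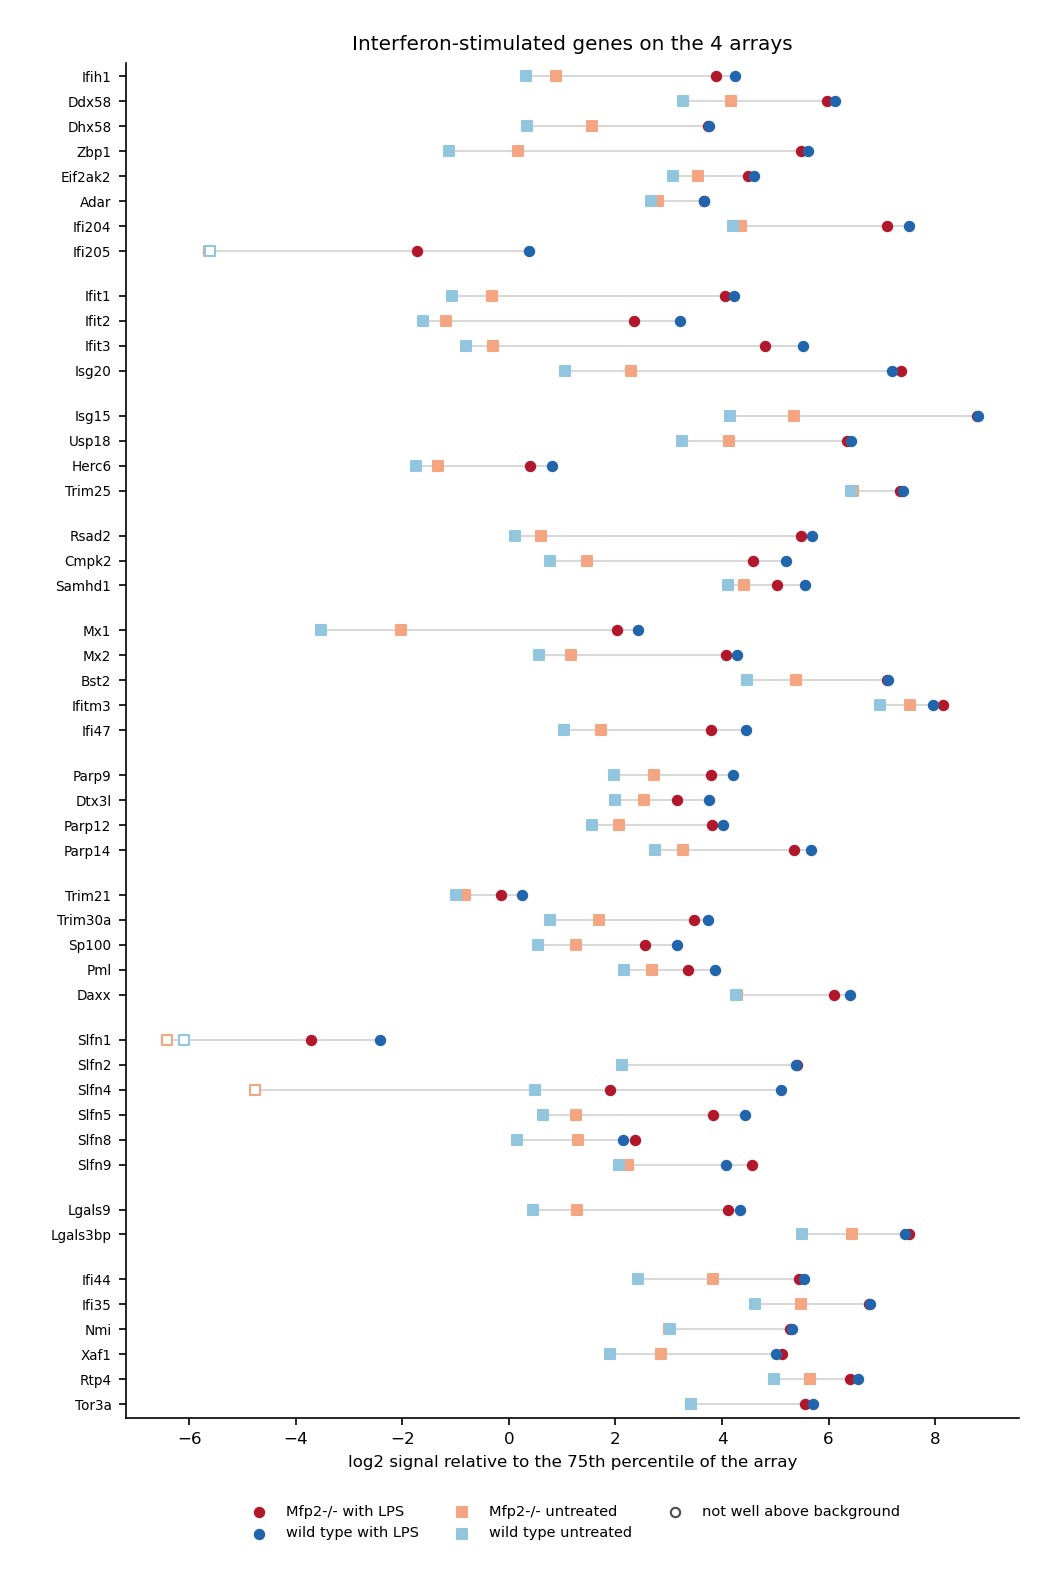
Level of each of the 47 genes on each array (log2 signal relative to the array's 75th percentile), grouped by role, with circles for LPS, squares for untreated, and open symbols where the probe was not well above background. The circles lie right of the squares of the same genotype for all 47 genes, and for most genes the untreated knockout lies right of the untreated wild type.

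Among sensors of RNA and DNA, Zbp1, which senses Z-form nucleic acids and can trigger cell death, had the largest response in both genotypes. Its log2 level was 5.48 in knockout and 5.62 in wild type with LPS, and 0.17 in untreated knockout and -1.12 in untreated wild type. That is a 39.8-fold response in knockout and a 106.8-fold response in wild type. The genotypes were within 2 technical SDs of each other with LPS and differed by 1.29 (2.45-fold) without it. Dhx58, which encodes the RIG-I-like helicase LGP2, followed the same course. It stood at 3.74 in knockout and 3.75 in wild type with LPS, and at 1.57 in untreated knockout and 0.35 in untreated wild type.

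Ddx58, which encodes the RNA sensor RIG-I, had levels of 5.96 and 6.12 with LPS in knockout and wild type, and 4.17 and 3.26 untreated. Its responses were 1.79 in knockout and 2.85 in wild type. Ifih1, which encodes the long-RNA sensor MDA5, responded 7.97-fold in knockout and 15.05-fold in wild type. Its genotype difference was -0.36 with LPS and 0.56 untreated. Eif2ak2, the RNA-activated kinase PKR that halts translation, responded by 0.95 and 1.52, so it was called in wild type and not in knockout. The difference of those responses was -0.57.

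Adar, an editor of double-stranded RNA, had the smallest response of the sensors, 0.87 in knockout and 0.99 in wild type, both under the 2-fold line. It stood at 3.67 and 3.65 with LPS in knockout and wild type, and at 2.80 and 2.66 untreated. Ifi204, a DNA-binding protein of the PYHIN family, had levels of 7.10 and 7.51 with LPS in knockout and wild type and 4.36 and 4.21 untreated. Ifi205, a neighbour of the same family on chromosome 1, was above background only with LPS. Its signal was 91.8 in knockout and 417.7 in wild type with LPS, and 7.49 and 7.31 untreated. The response was at least 5.53-fold in knockout and at least 20.7-fold in wild type. With normexp correction these responses were 2.28-fold and 7.32-fold, and with a stricter filter on dim probes neither was called. The knockout level with LPS was 4.28-fold below wild type. Its other probe gave -2.19 for the same genotype difference with LPS but was above background on 1 array only.

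The IFIT proteins bind RNA, and Ifit1 binds viral RNA that lacks the cell's own cap methylation, while Isg20 is an exonuclease that degrades RNA. These 4 genes had the largest median response of any role, 4.72 in knockout and 5.71 in wild type, and 4 of 4 were called higher in each. Ifit3 stood at 4.80 in knockout and 5.53 in wild type with LPS, and at -0.29 and -0.80 untreated. Its response was 34.0-fold in knockout and 80.3-fold in wild type. Ifit2 had the smallest response of the 4, 11.6-fold in knockout and 28.5-fold in wild type. It stood at 2.35 in knockout and 3.21 in wild type with LPS, and at -1.18 and -1.62 untreated.

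With LPS, the genotype difference was -0.86 for Ifit2 and -0.73 for Ifit3. That of Ifit1, beside them on chromosome 19, was -0.18, within 2 technical SDs. Untreated, the 3 genes were higher in knockout by 0.44, 0.51 and 0.76 for Ifit2, Ifit3 and Ifit1. Isg20 stood at 7.36 in knockout and 7.18 in wild type with LPS, and at 2.28 and 1.06 untreated. Its genotype difference was 0.18 with LPS and 1.23 untreated.

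Isg15, a ubiquitin-like protein joined to other proteins, was the gene of its group with the largest response. Its signal was 133800 in knockout and 144100 in wild type with LPS, and 15150 in untreated knockout and 6354 in untreated wild type. The scaled levels differed between genotypes by -0.02 with LPS and by 1.21 (2.31-fold) untreated. Usp18, the protease that removes Isg15 and restrains the interferon receptor, had a genotype difference of -0.07 with LPS and 0.88 untreated. Herc6, an Isg15 ligase in the mouse, responded by 1.73 and 2.57 in knockout and wild type. Trim25, a ubiquitin ligase that acts with RIG-I, responded by 0.89 and 0.98 and was not called in either genotype. It stood at 7.34 and 7.40 with LPS, and at 6.45 and 6.42 untreated.

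Viperin, encoded by Rsad2, makes a nucleotide analogue that ends viral RNA chains, and Cmpk2 is the neighbouring nucleotide kinase. Rsad2 had levels of 5.49 and 5.69 with LPS in knockout and wild type, and 0.60 and 0.12 untreated. Cmpk2 stood at 4.59 and 5.21 with LPS, and at 1.47 and 0.76 untreated. The genotype difference with LPS was -0.20 for Rsad2 and -0.62 for Cmpk2, the first within 2 technical SDs and the second outside. Samhd1, which depletes nucleotides, had the smallest knockout response of all 47 genes, 0.60, against 1.46 in wild type. It stood at 5.02 in knockout and 5.56 in wild type with LPS, and at 4.42 and 4.11 untreated.

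Mx1, a dynamin-like GTPase that acts on viral ribonucleoproteins, had the largest gap between the responses of the genotypes. Its level was 2.03 in knockout and 2.41 in wild type with LPS, and -2.03 in untreated knockout and -3.53 in untreated wild type. The probe lies at chr16:97668644-97668703 (mm9, from the array files). The response was 16.7-fold in knockout and 61.7-fold in wild type, a difference of -1.89. The untreated signal was low, 90.8 in knockout and 30.9 in wild type. With normexp background correction, which holds low signals closer together, the untreated difference was 0.65 instead of 1.51, under the 2-fold line, and the difference of responses was -1.20.

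Mx2, its neighbour, responded by 2.90 in knockout and 3.72 in wild type. Ifi47, an interferon-inducible GTPase, stood at 3.80 and 4.45 with LPS in knockout and wild type, and at 1.73 and 1.03 untreated. Bst2, or tetherin, holds budding virus on the cell surface. It stood at 7.10 and 7.12 with LPS and at 5.38 and 4.47 untreated. Ifitm3, which blocks viral fusion in endosomes, had the smallest response of this role, 0.63 in knockout and 0.99 in wild type. It stood at 8.15 in knockout and 7.96 in wild type with LPS, and at 7.52 and 6.98 untreated. Its genotype difference was 0.19 with LPS and 0.55 untreated.

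Parp9, Dtx3l and Parp14 are neighbours on chromosome 16 and, with Parp12, belong to the machinery of ADP-ribosylation, in which Dtx3l is the ubiquitin ligase partner of Parp9. The median response of the 4 was 1.40 in knockout and 2.36 in wild type. Parp9 stood at 3.79 and 4.22 with LPS in knockout and wild type, and at 2.73 and 1.97 untreated. Dtx3l had the smallest responses, 0.62 in knockout and 1.77 in wild type, and Parp14 the largest, 2.09 and 2.93. Dtx3l stood at 3.16 and 3.75 with LPS, and at 2.53 and 1.98 untreated. Parp14 stood at 5.36 and 5.66 with LPS, and at 3.27 and 2.74 untreated. The genotype differences of the 4 lay between -0.59 and -0.22 with LPS and between 0.52 and 0.77 untreated.

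TRIM proteins are ubiquitin ligases, and Pml, Sp100 and Daxx form nuclear bodies that silence viral genomes. Sp100 stood at 2.56 in knockout and 3.15 in wild type with LPS, and at 1.26 and 0.55 untreated. Pml stood at 3.35 and 3.88 with LPS, and at 2.68 and 2.15 untreated. Both were lower in knockout with LPS and higher in untreated knockout, by over 2 technical SDs. Daxx stood at 6.11 and 6.41 with LPS in knockout and wild type, and at 4.29 and 4.27 untreated, so it differed with LPS (-0.30) and by 0.02 untreated. Its responses were 1.82 and 2.14. Trim30a, a mouse TRIM protein that restrains Toll-like receptor signalling, responded by 1.78 and 2.95. It stood at 3.48 and 3.73 with LPS, and at 1.70 and 0.78 untreated. Trim21, the cytosolic antibody receptor, had the smallest wild-type response of this role, 1.24, against 0.67 in knockout. It stood at -0.16 and 0.24 with LPS in knockout and wild type, and at -0.83 and -0.99 untreated.

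The Schlafen family, linked to growth arrest of lymphoid and myeloid cells, held both the largest genotype differences and the exceptions. Slfn4 had a signal of 1136 in knockout and 11060 in wild type with LPS. Untreated, it was 13.6 in knockout, not well above background, and 502.6 in wild type. The knockout level was 9.16-fold lower with LPS and at least 25.7-fold lower untreated. Both genotypes responded, by at least 68.5-fold in knockout and by 24.4-fold in wild type, so by these values the response was larger in knockout by at least 1.49 (log2). With normexp correction it was 16.2-fold in knockout and 22.3-fold in wild type, a difference of -0.46, and the untreated genotype difference was -2.61 (log2). With a stricter filter on dim probes the knockout response and the untreated difference were not called. The 1 probe for Slfn4 lies at chr11:83002974-83003033 (mm9).

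Slfn1 was dim, with signals of 23.2 in knockout and 60.1 in wild type with LPS, and was not above background untreated. It was 2.44-fold lower in knockout with LPS, a call that did not remain under normexp correction. Its response was at least 2.98-fold in wild type, while the bound in knockout, 1.40-fold, fell under the line. The wild-type call did not remain with normexp correction or with a stricter filter on dim probes. Slfn2, which keeps T cells of mice quiescent, was within 2 technical SDs of wild type in both states. It stood at 5.42 and 5.39 with LPS in knockout and wild type, and at 2.13 and 2.12 untreated.

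Slfn5 and Slfn8 followed the majority of the effector genes. Slfn5 stood at 3.82 and 4.43 with LPS in knockout and wild type, and at 1.26 and 0.63 untreated. Slfn8 stood at 2.37 and 2.15 with LPS, and at 1.30 and 0.15 untreated. Among the 44 genes above background on all 4 arrays, Slfn9 had the only response larger in knockout by over 2 technical SDs. The response was 2.33 against 2.0 in wild type, a difference of 0.33 where 2 technical SDs are 0.32. Its other probe gave 0.02 for that difference. By the probe used here Slfn9 stood at 4.56 and 4.07 with LPS, and at 2.23 and 2.07 untreated. These 6 genes lie in 1 cluster on chromosome 11 (neighbours within 250 kb), and their median genotype difference with LPS was -0.29. Probes of such near copies may share signal: the files also list a transcript of Slfn8 for the Slfn9 probe used here.

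Galectin-9, encoded by Lgals9, binds surface sugars, and Lgals3bp encodes a galectin-binding glycoprotein. Lgals9 stood at 4.12 and 4.34 with LPS in knockout and wild type, and at 1.27 and 0.45 untreated. Lgals3bp stood at 7.51 and 7.43 with LPS, and at 6.45 and 5.50 untreated. Both were within 2 technical SDs of wild type with LPS and higher in untreated knockout, by 0.82 and 0.95.

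Of the remaining genes, Ifi44 had the largest untreated genotype difference. It stood at 5.44 and 5.54 with LPS in knockout and wild type, and at 3.82 and 2.43 untreated. Xaf1, an antagonist of an inhibitor of apoptosis, had the largest response of these genes by the probe used here. That response was 2.27 in knockout and 3.12 in wild type. Xaf1 stood at 5.12 and 5.01 with LPS, and at 2.85 and 1.89 untreated. Rtp4, a chaperone of receptor transport, had the smallest, 0.75 and 1.58. It stood at 6.39 and 6.56 with LPS, and at 5.65 and 4.97 untreated. Nmi and Tor3a were within 2 technical SDs of wild type in both states. Nmi, a partner of STAT and Myc proteins, stood at 5.28 and 5.32 with LPS and at 3.01 and 3.02 untreated. Tor3a stood at 5.56 and 5.71 with LPS and at 3.41 and 3.42 untreated. Ifi35, the binding partner of Nmi, had a genotype difference of -0.02 with LPS and 0.85 untreated.

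**Figure D2:**
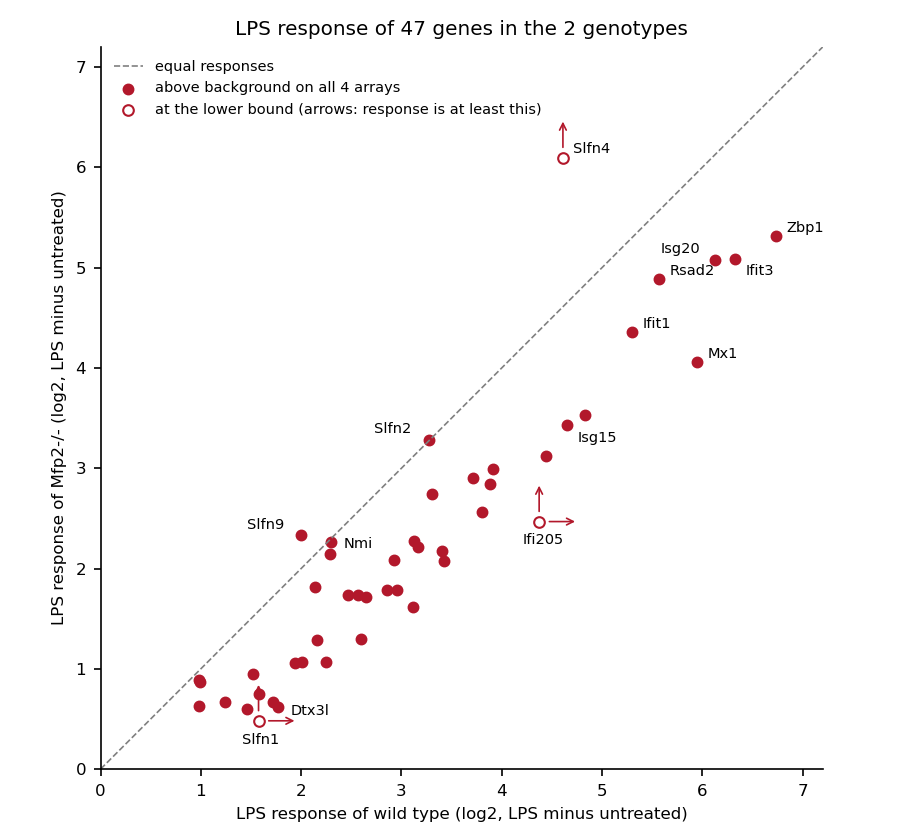
LPS response of each of the 47 genes (log2, LPS minus untreated), with knockout on the vertical and wild type on the horizontal axis and a dashed line of equal responses. Filled points are genes above background on all 4 arrays, of which 42 of 44 lie below the line. Open points are Slfn4, Ifi205 and Slfn1 at their lower bounds.

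With LPS most effector genes were slightly lower in knockout than in wild type. Of 47 genes, 39 lay below 0, as did 44.2% of all genes, and the median difference was -0.22, against 0.05 over 17727 genes. None (0) were called higher and 3 were called lower, namely Slfn4, Ifi205 and Slfn1, where 1.86% of all genes were called higher and 4.39% lower. By over 2 technical SDs (0.25), 18 of the 44 were lower and 1, Slfn9, higher, where 18.2% of all genes were lower by that margin. The 3 called genes were also the 3 that were not above background on all 4 arrays.

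Without LPS the direction was the opposite, and most effector genes were higher in knockout than in wild type. Of 45 genes measured, 42 lay above 0, as did 59.0% of all genes, and the median difference was 0.60, against 0.06 over 18400 genes. Called higher were 7 genes, Mx1 (1.51), Ifi44 (1.40), Zbp1 (1.29), Isg20 (1.23), Dhx58 (1.22), Isg15 (1.21) and Slfn8 (1.16), and called lower was Slfn4. Over all genes 3.08% were called higher and 3.9% lower. With the probes of a gene averaged, the calls of Mx1, Dhx58, Slfn8 and Ifi44 did not remain and those of Isg15, Isg20 and Zbp1 did. By over 2 technical SDs (0.20), 35 of the 44 genes above background on all 4 arrays were higher and 0 lower, where 25.2% of 15516 genes were higher by that margin.

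**Figure D3:**
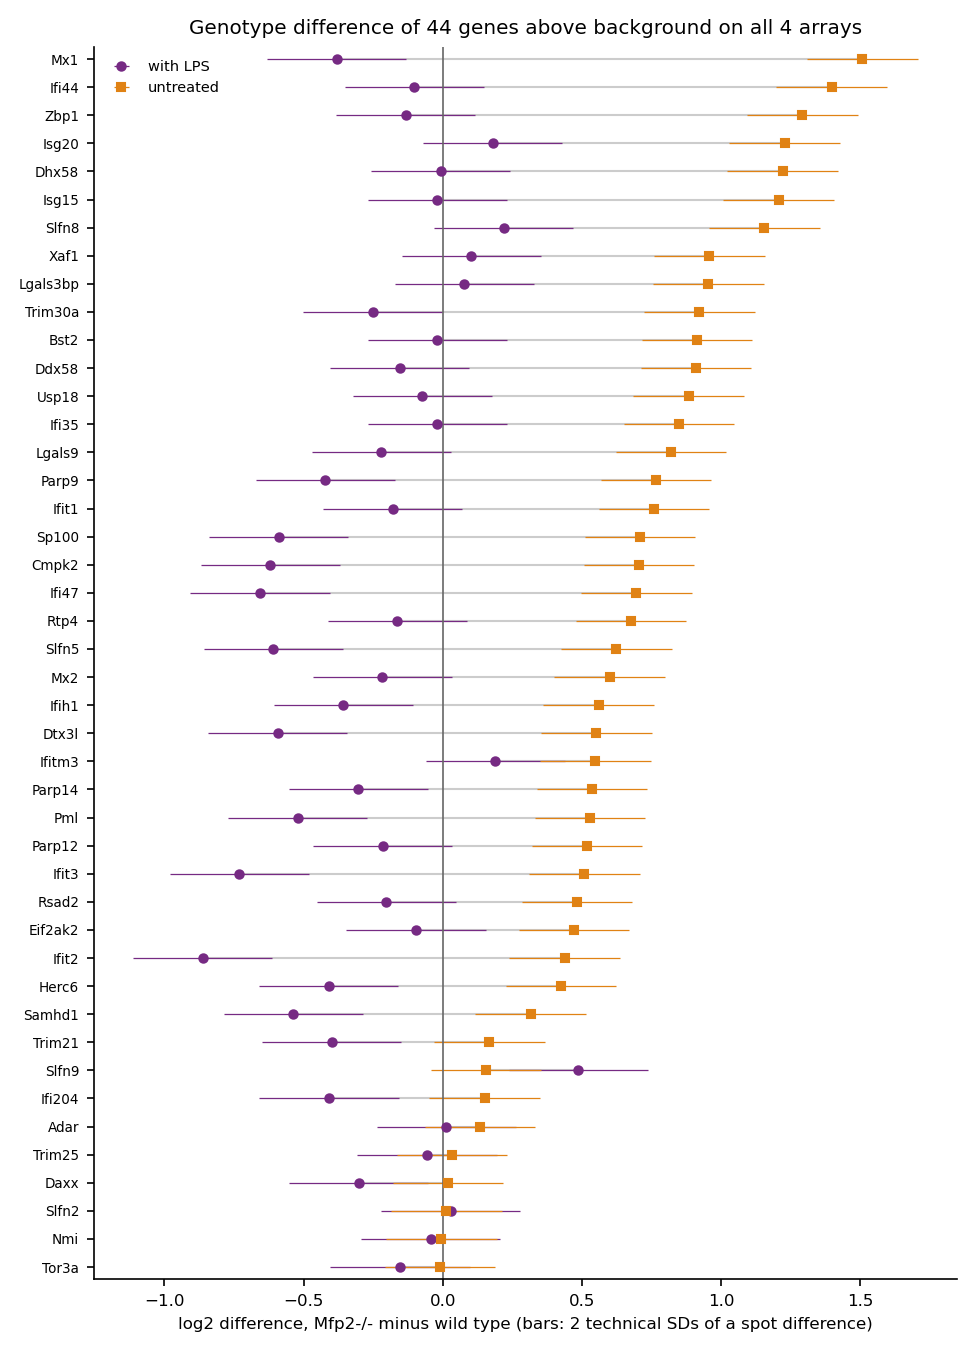
Genotype difference (log2, knockout minus wild type) of the 44 genes above background on all 4 arrays, as circles with LPS and squares untreated, ordered by the untreated difference, with bars of 2 technical SDs of a spot difference. The circles lie left of 0 for 36 of 44 genes and the squares right of 0 for 42.

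The LPS response was smaller in knockout for 42 of the 44 effector genes above background on all 4 arrays. The difference of the responses equals the genotype difference with LPS minus that without, so these 3 comparisons share arrays and are not separate readings. The response was smaller in 49.6% of all genes. By over 2 technical SDs it was smaller in 38 of the 44 and in 18.7% of all genes. The median difference was -0.93, against 0.00 (0.003) over 15516 genes. Called lower were 18 genes and called higher 0, where 2.91% of all genes were called lower and 1.69% higher. The largest gaps were those of Mx1 (-1.89), Ifi44 (-1.50), Zbp1 (-1.42), Ifi47 (-1.35) and Cmpk2 (-1.33). Slfn9 (0.33) and Slfn2 (0.02) were the 2 of the 44 above 0. Outside the 44, Slfn4 had the larger response in knockout by at least 1.49, and with normexp correction the smaller one (-0.46).

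The genotype differences of the 44 genes fell into several patterns. In 20, among them Isg15, Zbp1, Dhx58, Ifi44, Bst2 and Lgals3bp, the knockout was within 2 technical SDs of wild type with LPS and higher untreated, as it was in 12.6% of all genes. In 15 it was lower with LPS and higher untreated, both by over 2 technical SDs, where 3.33% of all genes showed both. These 15 were Ifih1, Ifit2, Ifit3, Herc6, Cmpk2, Samhd1, Mx1, Ifi47, Parp9, Dtx3l, Parp14, Trim30a, Sp100, Pml and Slfn5. In 5, namely Adar, Trim25, Slfn2, Nmi and Tor3a, the genotypes were within 2 technical SDs in both states, as they were in 38.0% of all genes. Ifi204, Trim21 and Daxx were lower in knockout with LPS alone by that margin, and Slfn9 higher with LPS alone.

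**Figure D4:**
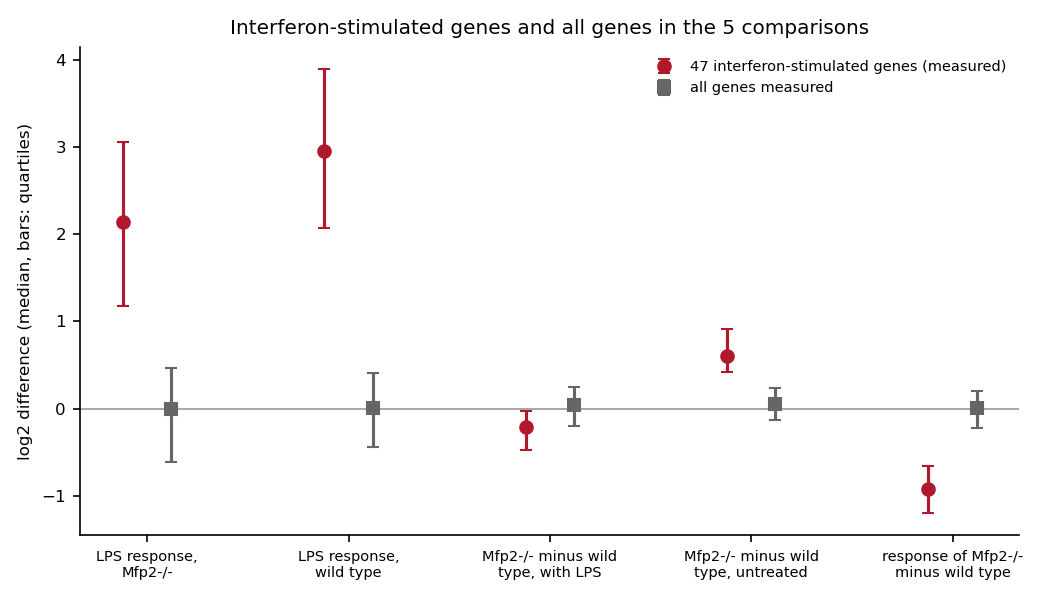
Median (points) and quartiles (bars) of the log2 differences of the effector genes measured (circles) and of all genes measured (squares) in the 5 comparisons. The effector genes have medians of 2.15 and 2.95 in the LPS responses, -0.22 and 0.60 in the genotype differences with LPS and untreated, and -0.93 in the difference of responses, beside medians of all genes between -0.01 and 0.06.

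The probes of a gene did not always give the same response. Of 29 genes with more than 1 probe, 15 had more than 1 above background on all 4 arrays. The range between such probes had a median of 0.61 for the knockout response and 0.82 for the wild-type response, and of 0.18 and 0.26 for the genotype difference with LPS and untreated. The range reached 1 or more for 7 genes in knockout and 6 in wild type. The probes shared the sign of the response in 14 of the 15 genes in each genotype. They shared that of the genotype difference in 10 of 15 with LPS and in 11 of 15 untreated, and that of the difference of responses in 13 of 15.

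Slfn9 was the exception among the responses. The probe used here, at chr11:82794408-82794467 (mm9), gave responses of 2.33 in knockout and 2.0 in wild type. Its other probe, at chr11:82793812-82793871, gave -0.07 and -0.09. That probe gave a genotype difference with LPS of -0.11, against 0.49 for the probe used here. Ifi204's other probe gave 5.50 and 6.33, against 2.74 and 3.30 for the one used here. Another probe of Trim25 gave 3.02 and 2.61, against 0.89 and 0.98, so the call of Trim25 depends on the probe. The second probe of Adar gave responses of 2.18 and 1.70 and an untreated genotype difference of -0.62, where the one used here gave 0.13. A second probe of Slfn5 gave responses of 0.55 and 0.68, against 2.57 and 3.80. The 5 probes of Samhd1 gave knockout responses between 0.60 and 1.87. Another probe of Xaf1 gave responses of 0.25 and 1.36, against 2.27 and 3.12. Its genotype difference with LPS was -0.39, against 0.10. For Ifi44 the other probe gave responses of 1.11 and 1.86, against 1.62 and 3.12. That probe gave 0.47 for the untreated genotype difference, against 1.40, and -0.75 for the difference of responses, against -1.50. Of the 4 probes of Ddx58, 1 gave 0.16 untreated and -0.27 for the difference of responses, against 0.91 and -1.06 for the one used here. The others gave 0.78 and 0.72 untreated, and -0.87 and -0.91.

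**Figure D5:**
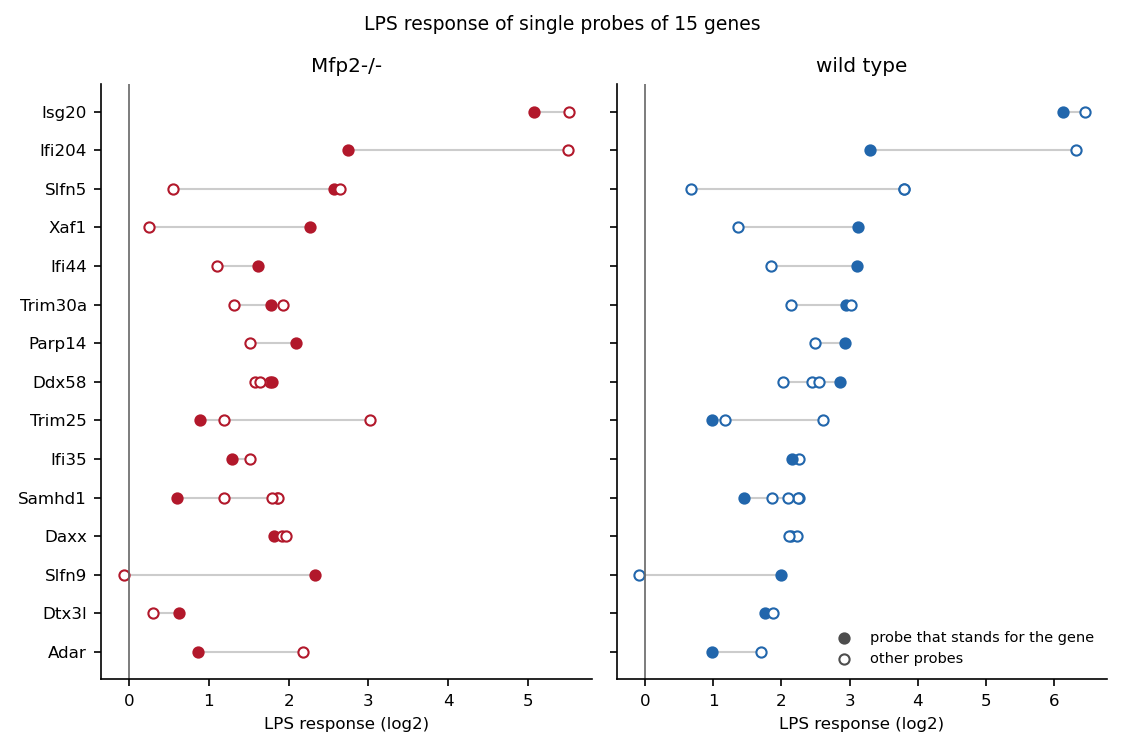
LPS response (log2) of every probe above background on all 4 arrays for the 15 genes with more than 1 such probe, with knockout at left and wild type at right. Filled points are the probes that stand for the gene, open points the others. The 2 probes of Slfn9 lie at 2.33 and -0.07 in knockout.

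Genes with the ISRE letters in their window and genes without them overlapped in their responses. With Ifi205, Slfn1 and Slfn4 at their bounds, the 16 with the letters had a median response of 2.40 in knockout and 3.38 in wild type. The 21 without had medians of 1.73 and 2.47. In knockout the ranges were 0.63 to 5.09 with the letters and 0.48 to 6.10 without. In wild type they were 0.99 to 6.33 with the letters and 0.98 to 6.13 without. The median untreated genotype difference was 0.62 with the letters and 0.52 without.

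Other genes of the pathway were counted from 3 lists. Of 22 genes of interferon signalling, 10 were called higher and 0 lower with LPS in knockout, and 8 higher and 1 lower (Ticam2, at -1.12) in wild type. The medians were 0.70 in knockout and 0.79 in wild type. Between the genotypes 1, Ifnb1, was called higher with LPS, and 0 were called untreated, with medians of 0.05 with LPS and 0.08 untreated. In the difference of responses Ifnb1 was called higher and 2 genes lower, with a median of 0.03. Ifnb1, which encodes interferon beta, had a signal of 1266 in knockout and 401.7 in wild type with LPS, and 50.5 and 41.3 untreated. Its response was 4.93 in knockout and 3.43 in wild type, larger in knockout. Stat2, a transcription factor downstream of the receptor, was among those called lower in that difference, at -1.08. Its genotype difference was -0.58 with LPS and 0.50 untreated. That of Irf7, an amplifier of interferon transcription, was 0.03 with LPS and 0.91 untreated.

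Of 16 further effectors, OAS enzymes and other antiviral enzymes, guanylate-binding proteins, immunity-related GTPases and antigen-processing genes, 11 were called higher with LPS in knockout and 14 in wild type. The medians were 1.65 in knockout and 2.65 in wild type. Untreated, 2 were called higher in knockout, Oasl2 (2.77) and Tap1 (1.04). The median genotype differences were -0.21 with LPS and 0.79 untreated. In the difference of responses 7 of 14 measured genes were called lower and 0 higher, with a median of -0.89.

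Of 6 feedback genes, which include Isg15 and Usp18 from the effector genes, 4 were called higher with LPS in each genotype, with medians of 2.05 in knockout and 2.76 in wild type. Socs3, an inhibitor of cytokine receptor signalling, responded by 4.87 in knockout and 5.52 in wild type. Socs1, the inhibitor of the JAK kinases at the interferon receptor, responded by 1.89 and 2.35. Between the genotypes 0 were called with LPS, and 1, Isg15, was called higher in untreated knockout, with medians of -0.05 and -0.03. In the difference of responses 1, again Isg15, was called lower, with a median of -0.55.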

How the data were processed

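Cy3-labelled RNA of 4 cultures was read on Agilent arrays of design 074809, per the file headers. The deposited scanner files give the linear intensity of each spot, background subtracted and detrended within each array. Their headers name Feature Extraction 10.7.1.1 and the submitters' processing notes 9.5.1.1. Deposited flags of the type other mark spots well above background, saturated or outlying, per the file headers. The deposited series table also gives linear intensity and matches a quantile normalization of the processed signals to within 0.01 log2 for 56486 to 56525 of 56601 probes on an array.

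Values here are log2 of the processed signal, averaged over the spots of a probe without control and outlier spots, minus each array's 75th percentile (303 to 370 in signal). Each gene has 1 probe: one with a value on all 4 arrays, then above background, then with the highest mean signal. Of the probes, 32994 were named by RefSeq accession, 520 by an older symbol, and 23091 kept the file's name. A gene above background on 1 of 2 arrays is given as a bound: on the dim array the lowest signal well above background takes the place of the gene's own, unless that is higher. Promoter windows are RefSeq's, of GRCm38.p6; probe coordinates are mm9.

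The 47 genes, the lists and the rule for named genes were chosen with earlier results of these data known. The rule names, in each role, the genes with the largest and smallest responses and differences, and every gene called between genotypes. It also names every gene whose probes disagree by a called difference. Lists were interferon signalling, further effectors, feedback genes, and markers of macrophages and 6 other cell types. Alternatives were normexp (offset 50), quantile, median and spike-in (7 probes) scaling, the deposited series table, averaging over a gene's probes, dim probes filtered more strictly or not at all, and 1.5-fold and 4-fold thresholds. With 1 array per group no test between groups was run. Calling was tested on simulated data that held within-array noise alone. The planted changes lay above the 2-fold threshold, in genes well above the dimmest detected signals. Variation between cultures, changes near the threshold and changes in dim genes were thus not covered. Tools were R 4.3.3 with limma 3.58.1 for normexp, and Python 3.11.15 with numpy 2.4.6, pandas 2.3.3 and matplotlib 3.10.9.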

Additional observations from a re-analysis of the deposited data

Results flagged for a closer look

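In 15 effector genes the genotype difference had opposite signs without and with LPS, each by over 2 technical SDs of a spot difference; with 1 array per group the change between the states was not tested. The difference of the LPS responses (log2, knockout minus wild type) was -1.89 for Mx1, -1.35 for Ifi47, -1.33 for Cmpk2, -1.30 for Ifit2, -1.30 for Sp100, -1.24 for Ifit3, -1.23 for Slfn5 and -1.19 for Parp9. It was -1.17 for Trim30a, -1.15 for Dtx3l, -1.05 for Pml, -0.92 for Ifih1, -0.85 for Samhd1, -0.84 for Parp14 and -0.83 for Herc6. All 15 kept both signs under normexp, quantile, median and spike-in scaling and with the mean of a gene's probes. The deposited series table matches the quantile setting, so it is no separate check. The 2 filter settings leave the values of these genes as they were and could not change a sign. Whether the margin of 2 technical SDs (0.20 untreated, 0.25 with LPS) held under the other settings was not checked. Some other probes above background on all 4 arrays fell within it. They gave 0.06 and 0.06 untreated for Samhd1, and -0.17 and -0.22 with LPS for Trim30a. For Slfn5 such a probe gave 0.11 untreated and -0.02 with LPS.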

How the results depend on the processing

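The median response in knockout, 2.15, was 2.0 with normexp correction, quantile normalization or the deposited series table, 1.92 with spike-in centring and 1.97 with the mean of a gene's probes. That in wild type, 2.95, was 2.80 with normexp correction, 2.74 with spike-in centring and 2.66 with the mean of probes. Of the effector genes called higher untreated (7), 3 remained with the mean of probes, and 23 were called at 1.5-fold and 0 at 4-fold. The share of all genes called at 1.5-fold or 4-fold was not counted, so counts at these thresholds have no background beside them. With the stricter filter 0 were called lower untreated, since Slfn4 was not above background in untreated knockout. With LPS, 10 were called lower at 1.5-fold instead of 3. In the difference of responses, 33 were called lower at 1.5-fold and 0 at 4-fold instead of 18. At 2-fold, 15 were called lower with normexp correction, without Ddx58, Isg20 and Pml, where 1.49% of all genes were. With the mean of probes 15 were called lower, where 3.25% of all genes were. Ddx58, Isg20, Pml and Slfn5 were then lost and Ifih1 gained. Without a filter 1 (Slfn4, from a signal not above background) was called higher. With LPS, 39 of 47 genes were below 0, and 34 with normexp correction. Untreated, 42 of 45 genes were above 0, and 39 with quantile, median or spike-in scaling, the series table or the mean of probes. Of single-gene values over 8 settings, 1527 moved by no more than 1 technical SD and 307 by more. The 1527 include 230 values without a filter and 224 with the stricter filter, which could not move. Changes of sign were counted only for values called in the main setting, with 0 found. Some uncalled values did change sign. No paired analysis was possible because each group has 1 array and the labels carry no replicate numbers. The number of arrays limits the precision, and signals of Slfn1, Ifi205 and, in untreated knockout, Slfn4 lie near background.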
